A study of Arabidopsis thaliana with 60 samples.

Results

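The comparison described here sets dexamethasone (DEX) against its solvent DMSO in roots of 1 Arabidopsis thaliana line after 4 h of auxin. Its members are 6 of the 60 RNA-seq libraries of the series, 3 with DEX and 3 with DMSO, chosen by the line, treatment and time in their titles. Seedlings of pGATA23::slr-1-GR, called slr-1 from here on, express the stabilised Aux/IAA repressor slr-1, a form of IAA14, fused to the hormone-binding domain of the glucocorticoid receptor (GR) and driven by the GATA23 promoter. All 6 samples carried this fusion, and seedlings 4 d old were held for 22 h on 10 µM NPA, an inhibitor of auxin transport. They then received NPA with 10 µM DEX or with DMSO for 2 h, and 10 µM of the auxin IAA was added for a further 4 h without removing DEX or DMSO. About 200 lower root segments were pooled per sample. The other samples of the series are the same line after 0, 1, 2 and 6 h of IAA and a second line, pGATA23::shy2-2-GR (here shy2-2), which carries stabilised IAA3 in the same design. No group received DEX without a fusion, so an effect of DEX itself cannot be told apart from that of the fusion, and the labels do not say that the 3 samples of a group were separate cultures, so p-values measure the spread between samples, which may be technical.

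Auxin acts on transcription by removing Aux/IAA proteins, which otherwise hold ARF transcription factors in check. The slr-1 form resists this removal. IAA14 works with ARF7 and ARF19 in the pericycle cells next to the xylem, where auxin starts the divisions that found a lateral root. LBD factors, PUCHI and PLETHORA factors act downstream in these cells. GATA23 marks the founder cells, so the fusion is expected mainly there and in their neighbours, and DEX lets it enter the nucleus. The segments hold all root tissues, and in such bulk samples fewer cells of a type and less RNA per cell cannot be told apart.

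The 6 libraries held 25898914 to 48227638 counts in genes, with a median of 38390987. The sequencing run, known only from the names of the deposited data, was the same for the 3 DEX libraries and another for the 3 DMSO libraries, so run and treatment cannot be told apart at 4 h. The 7 root markers were detected in every library and summed to 215 to 255 CPM (counts relative to the scaled library total). The 9 photosynthesis genes summed to 158, 89.4 and 449 CPM in DEX replicates 1, 2 and 3 and to 68.4, 87.5 and 97.1 CPM in DMSO replicates 1, 2 and 3. None of these 9 genes passed the test, with a median log2 difference of 2.41 that was 1.08 without DEX replicate 3. Of the 4 shoot identity genes YAB3 and AFO were at 0 in 5 of the 6 libraries, DEX replicate 3 being the exception, with 0.150 and 0.200 CPM. The part of this green-tissue RNA in the results was not tested, and some counts below are also given without DEX replicate 3.

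Upstream sequence is shown for 4 lateral root genes with large differences, because auxin response elements, the letters bound by ARF proteins, were found in it. The windows are the 250 bases before the annotated gene start, read 5′ to 3′ on the strand of the gene from the RefSeq assembly TAIR10.1. Capitals mark TGTCTC or TGTCGG, or the same letters read on the other strand (GAGACA or CCGACA), on both strands, and each of the 4 windows held 1 match. The GATA23 window is chr5:9479174-9479423 on the plus strand, with CCGACA starting 122 bases before the gene. That of LBD33 is chr5:1831468-1831717 on the minus strand, with TGTCTC 14 bases before the gene. PUCHI has TGTCTC 22 bases before the gene in chr5:6166041-6166290 on the minus strand, and PLT7 has TGTCTC 133 bases before the gene in chr5:26185343-26185592 on the plus strand.
GATA23: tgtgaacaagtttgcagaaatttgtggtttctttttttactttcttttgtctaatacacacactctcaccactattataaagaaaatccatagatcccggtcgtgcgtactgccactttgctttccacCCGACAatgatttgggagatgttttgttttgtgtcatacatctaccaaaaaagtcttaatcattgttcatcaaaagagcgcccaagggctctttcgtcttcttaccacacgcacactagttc
LBD33: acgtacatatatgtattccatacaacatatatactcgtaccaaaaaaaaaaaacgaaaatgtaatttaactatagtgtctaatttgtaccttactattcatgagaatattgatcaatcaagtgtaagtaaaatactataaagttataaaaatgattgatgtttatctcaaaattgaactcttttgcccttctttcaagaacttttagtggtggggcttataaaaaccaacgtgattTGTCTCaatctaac
PUCHI: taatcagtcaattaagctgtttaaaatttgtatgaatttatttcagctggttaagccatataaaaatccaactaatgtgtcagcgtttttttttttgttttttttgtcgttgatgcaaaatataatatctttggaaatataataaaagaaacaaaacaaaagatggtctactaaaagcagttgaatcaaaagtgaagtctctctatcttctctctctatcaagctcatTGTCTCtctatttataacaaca
PLT7: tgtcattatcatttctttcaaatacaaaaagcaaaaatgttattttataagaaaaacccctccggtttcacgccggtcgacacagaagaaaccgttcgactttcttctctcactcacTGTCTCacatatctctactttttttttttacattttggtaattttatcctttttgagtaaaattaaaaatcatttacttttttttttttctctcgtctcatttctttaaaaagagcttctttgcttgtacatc
Either motif was found in 8 of the 21 lateral root genes that were lower in DEX (38.1%), in 10 of all 30 listed (33.3%) and in 14.7% of the windows of all 27443 protein-coding genes. Among all 2527 genes with a window that were lower in DEX the share was 15.1%, and among the 1255 that were higher it was 14.4%, both close to that of all genes. A match describes letters only and is not a measured binding site. The windows of LBD16, LBD17, LBD29, FLP, CRF2, CRF3 and SKOR held neither motif.

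At 4 h of IAA the slr-1 roots with DEX had less RNA of most lateral root initiation factors and DNA replication genes. They had more RNA of several transporters that load the xylem. Ribosome assembly genes, a group made after the largest differences had been seen, were also mostly lower. The other gene lists were chosen with earlier results of these data known. Of 21864 genes tested, 1274 (5.83%) were higher and 2622 (12%) lower in DEX at an adjusted p under 0.05 (edgeR's quasi-likelihood test, Benjamini-Hochberg over all genes tested). A log2 difference of at least 1 was found in 410 of the higher genes (1.88% of those tested) and 534 of the lower ones (2.44%). All 3 libraries of one group lay above all 3 of the other in 7408 genes (33.9%). Leaving out any 1 of the 6 libraries gave 2967 to 3401 calls in place of 3896 (17.8%). The median log2 difference of all genes tested was 0.04.

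GATA23, which encodes a GATA factor of lateral root founder cells and whose promoter also drives the fusion, stood at 0.767, 0.472 and 0.476 CPM in the DEX libraries and at 29.97, 29.8 and 23.1 CPM in the DMSO libraries. The groups lay far apart, with a log2 difference of -5.63 ± 0.24 (SE, n = 3 per group; edgeR adjusted p = 9.09e-14). GATA23 was already lower in DEX before any IAA was given, at 0.0215 ± 0.024 CPM against 0.784 ± 0.12 (SD, n = 3; edgeR adjusted p = 1.4e-05). These 0 h groups also came from different runs, and DEX 0 h replicates 1 and 2 were high in photosynthesis RNA. IAA14, the gene that the fusion was made from, is counted together with the fusion. Its level was 87.9, 79.7 and 86.0 CPM with DEX and 163, 144 and 123 CPM with DMSO, again without overlap, and its log2 difference was -0.76 ± 0.09 (edgeR adjusted p = 1.42e-06).

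The LOB-domain genes LBD16, LBD17, LBD29, LBD33, LBD14 and LBD18 were all lower in DEX. LBD16 (chromosome 2, 17663353 to 17665337), which acts in the first asymmetric division of founder cells, stood at 14.7, 10.9 and 11.8 CPM in DEX and 67.6, 55.5 and 54.4 CPM in DMSO. All 3 DEX libraries were thus below all 3 DMSO libraries, and the log2 difference was -2.25 ± 0.12 (n = 3 per group; edgeR adjusted p = 3.85e-12). LBD33 (chromosome 5, 1830671 to 1831467), whose product pairs with that of LBD18, stood at 3.65, 1.91 and 3.18 CPM in DEX and at 24.4, 18.4 and 18.23 CPM in DMSO, a log2 difference of -2.82 ± 0.26. LBD17, also on chromosome 2, differed by -2.67 ± 0.17. LBD29, induced by auxin through ARF7 and ARF19, had a smaller difference: 102, 71.9 and 69.9 CPM in DEX against 181, 169 and 141 CPM in DMSO gave -1.01 ± 0.16. LBD18 showed a similar log2 difference of -0.92 ± 0.20, and LBD14 at levels of 0.354 to 2.70 CPM one of -2.26 ± 0.43. Over the whole LBD family, 6 of 23 tested genes were lower, beside 12% of all genes, and 1, LBD25, was higher, at 1.63 ± 0.33.

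**Figure D1:**
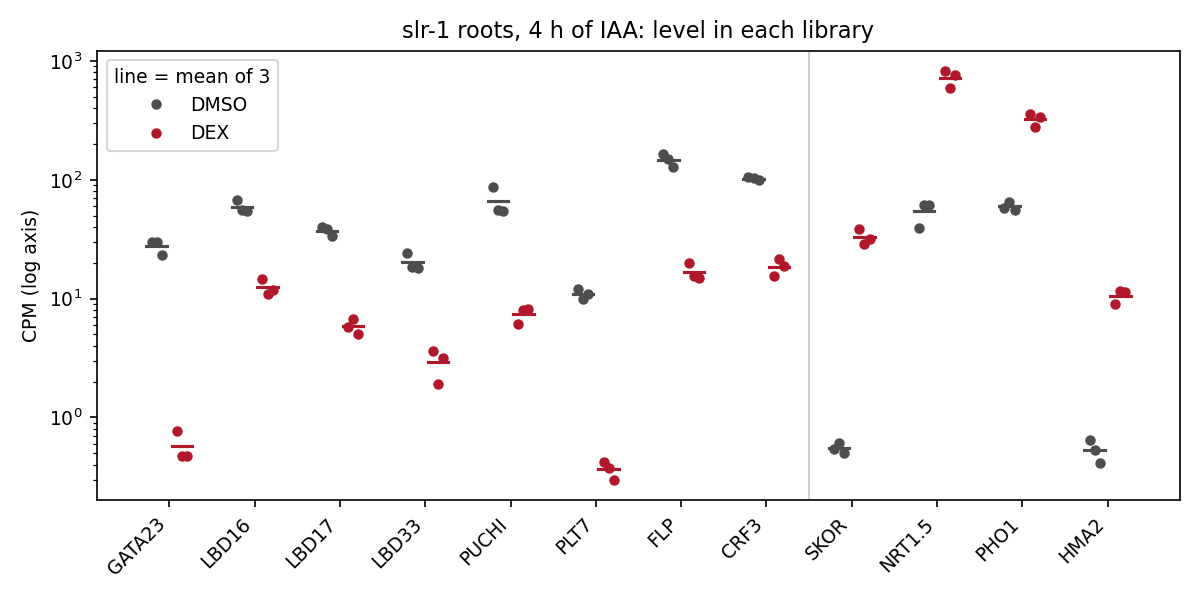
CPM of each library (points) and group mean (short lines) on a log axis in slr-1 roots after 4 h of IAA, DMSO in grey and DEX in red, 3 libraries each. The 8 lateral root genes on the left are lower in every DEX library, GATA23 with a log2 difference of -5.63, and the 4 transporter genes on the right are higher in every DEX library.

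Factors of the primordium that follow the LBD genes were among the largest differences. PUCHI (chromosome 5, 6164526 to 6166040) encodes an AP2 factor that limits divisions at the primordium flanks. It stood at 6.14, 8.04 and 8.21 CPM in DEX and at 87.3, 55.5 and 54.7 CPM in DMSO, with a log2 difference of -3.14 ± 0.17 (n = 3 per group; edgeR adjusted p = 4.64e-12). PLT7 (chromosome 5, 26185593 to 26189571), a PLETHORA factor needed for primordium formation and spacing, was near the floor in DEX, at 0.422, 0.377 and 0.300 CPM, and at 12.2, 10.0 and 10.8 CPM in DMSO. Its log2 difference was -4.91 ± 0.28, and that of its relative PLT5 was -1.88 ± 0.27. PLT1, PLT2 and BBM, PLETHORA genes of the root tip, gave 0.11 ± 0.10, 0.15 ± 0.11 and 0.27 ± 0.14 and did not pass the test.

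FLP (chromosome 1, 4907887 to 4911168), the MYB factor MYB124 known from stomata and from a feed-forward loop with ARF7 at PIN3, stood at 19.99, 15.6 and 14.9 CPM in DEX and 164, 151 and 128 CPM in DMSO. Its paralog MYB88 differed far less, at -0.70 ± 0.11 against -3.14 ± 0.16 for FLP. The cytokinin response factor genes CRF3 and CRF2 differed by -2.45 ± 0.12 and -1.76 ± 0.11. MAKR4, a gene of the MAKR family that acts in the spacing of lateral roots, differed by -1.38 ± 0.14. In all, 21 of the 30 listed lateral root factors were lower in DEX and 0 higher, with a median log2 difference of -1.20. The background was 12% lower and 5.83% higher, and the count was 18 without DEX replicate 3. The root tip regulators SHR and SCR did not pass the test, at 0.29 ± 0.14 and -0.09 ± 0.13.

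Among the auxin signalling genes themselves the differences were smaller. Of 28 Aux/IAA genes 7 were lower, namely IAA19, IAA14, IAA13, IAA12, IAA11, IAA5 and IAA9, and 2 were higher, IAA27 and IAA28. The shares of all genes were 12% lower and 5.83% higher, so the higher count is near that of all genes. Without DEX replicate 3 the lower count was 7 and the higher 1. IAA19 stood at 197, 198 and 179 CPM in DEX and 509, 408 and 380 CPM in DMSO, a log2 difference of -1.17 ± 0.14. IAA3, the gene of the other line's fusion, gave -0.35 ± 0.20 and did not pass. IAA28, a repressor that acts upstream of GATA23 in founder cells, was higher by 0.57 ± 0.18. IAA5 lost its call without DMSO replicate 1.

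ARF7 and ARF19 encode the activating factors that IAA14 binds. ARF7 did not pass the test at 0.04 ± 0.13, with 99.5, 86.1 and 94.2 CPM in DEX and 101, 87.7 and 84.0 CPM in DMSO. ARF19 was lower by a log2 of -0.32 ± 0.11, a call that 7 of 14 alternatives did not keep. ARF4 and ARF3 were lower by -1.21 ± 0.11 and -0.89 ± 0.18. With ARF16 and ARF19 they made 4 lower of 21 ARF and receptor genes, and 0 higher, with 3 lower without DEX replicate 3. The share of all genes lower was 12%.

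The auxin transport list holds carriers and the kinase genes PID, WAG1, WAG2 and D6PK. Of its 17 tested genes 6 were lower and 0 higher, beside 12% and 5.83% of all genes. Among the lower ones were the exporters PIN3 and PIN7 and the importers AUX1 and LAX3. AUX1 stood at 317, 218 and 263 CPM in DEX and 531, 471 and 429 CPM in DMSO, without overlap, a log2 difference of -0.84 ± 0.13 (edgeR adjusted p = 4.25e-05). LAX3, which in the tissue above the primordium takes up auxin and precedes cell separation, differed by -0.64 ± 0.17, a call lost without DEX replicate 2 or DMSO replicate 1.

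Genes of auxin metabolism went in both directions. GH3.1, GH3.5 and GH3.6, whose products conjugate IAA to amino acids, were lower, and the synthesis genes YUC6 and YUC2 were higher. GH3.1 stood at 114, 102 and 91.8 CPM in DEX and 429, 318 and 300 CPM in DMSO, a log2 difference of -1.77 ± 0.19. YUC6 stood at 15.7, 18.5 and 18.4 CPM in DEX and 3.504, 3.82 and 4.76 CPM in DMSO, 2.12 ± 0.25. GH3.3, at 1218 to 2641 CPM over the 6 libraries, gave -0.44 ± 0.25 and did not pass. The GH3.5 call was lost without DEX replicate 2.

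Other hormone genes were called in small numbers, in shares near those of all genes for cytokinin (12% lower and 5.83% higher). Of 21 cytokinin genes 3 were lower, the degradation genes CKX6 and CKX7 and the synthesis gene IPT5, and 2 were higher, the response regulator ARR6 and the synthesis gene IPT3. CKX6 differed by -1.25 ± 0.14, but by -2.56 when reads of both strands were counted. In the brassinosteroid list of 9 genes, CYP90D1 was higher by 2.07 ± 0.22 and the synthesis gene DWF4 and the inactivation gene BAS1 were lower, the last at -0.33 ± 0.11 in a call that 5 of 14 alternatives did not keep. The GA3OX2 gene of gibberellin synthesis (1 of 9 listed genes) and ACS7 of ethylene synthesis (1 of 14) were higher, and both calls were lost in 3 or more alternatives. The peptide gene RGF8 was the 1 lower gene of 11 RGF genes, at -1.41 ± 0.21. Of the class II HD-ZIP genes 2 of 8, HB-2 and HAT1, were lower by -0.65 ± 0.09 and -0.57 ± 0.13.

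Wall genes separated by family. Expansins, which loosen walls without cutting them, were lower in 6 of 15 tested EXPA genes and higher in 0, beside 12% of all genes lower. Without DEX replicate 3 the lower count was 4. EXPA4 stood at 102, 141 and 118 CPM in DEX and 672, 381 and 453 CPM in DMSO, a log2 difference of -2.06 ± 0.43. EXPA1, which acts in the swelling of founder cells, stood at 144, 105 and 124 CPM against 484, 388 and 303 CPM, a difference of -1.65 ± 0.27. EXPA20 was lower at -1.35 ± 0.15, but its call was lost when reads of both strands were counted (-0.48). In contrast, XTH genes, whose enzymes cut and rejoin xyloglucan, were higher in 6 of 29 and lower in 0, beside 5.83% of all genes higher. The higher count was 5 without DEX replicate 3. Among the higher XTH genes was XTH28 at 1.16 ± 0.18. Of the 11 tested genes of cell separation 4 were lower, 3 of them expansins and the polygalacturonase gene PGAZAT, which gave -1.55 ± 0.49 and only -0.96 without DMSO replicate 1. Without DEX replicate 3 this count was 1. SAUR genes were higher in 5 and lower in 5 of 55, near the shares of all genes (5.83% and 12%), and 4 and 4 without DEX replicate 3.

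DNA replication genes were lower in DEX in 10 of 13 and higher in 0, with a median log2 difference of -0.88, beside 12% of all genes lower. RNR1, the large subunit of ribonucleotide reductase, stood at 49.6, 52.7 and 60.1 CPM in DEX and 158, 111 and 135 CPM in DMSO. The groups did not overlap, and the log2 difference was -1.31 ± 0.15 (edgeR adjusted p = 4.36e-07). The helicase subunit gene MCM6 stood at 11.2, 13.7 and 13.5 CPM against 39.3, 25.1 and 30.8 CPM, and the clamp gene PCNA1 at 12.4, 17.45 and 15.5 against 44.6, 34.2 and 37.3 CPM. All 6 MCM genes and both PCNA genes were among the 10.

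Of 22 genes of cell cycle entry 7 were lower and 0 higher, with 5 lower without DEX replicate 3 and 4 without DMSO replicate 1. The share of all genes lower was 12%. E2FA, a factor that turns on S phase genes, differed by -1.22 ± 0.15, and the D-type cyclins CYCD3;2 and CYCD3;1 by -0.61 ± 0.12 and -0.94 ± 0.25. The CYCD3;1 call was lost without DMSO replicate 1. Of 19 genes of mitosis 1 was lower at this time, CDKB2;1 with 12.1, 14.4 and 15.5 CPM in DEX and 26.7, 20.3 and 25.5 CPM in DMSO, -0.79 ± 0.17.

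**Figure D2:**
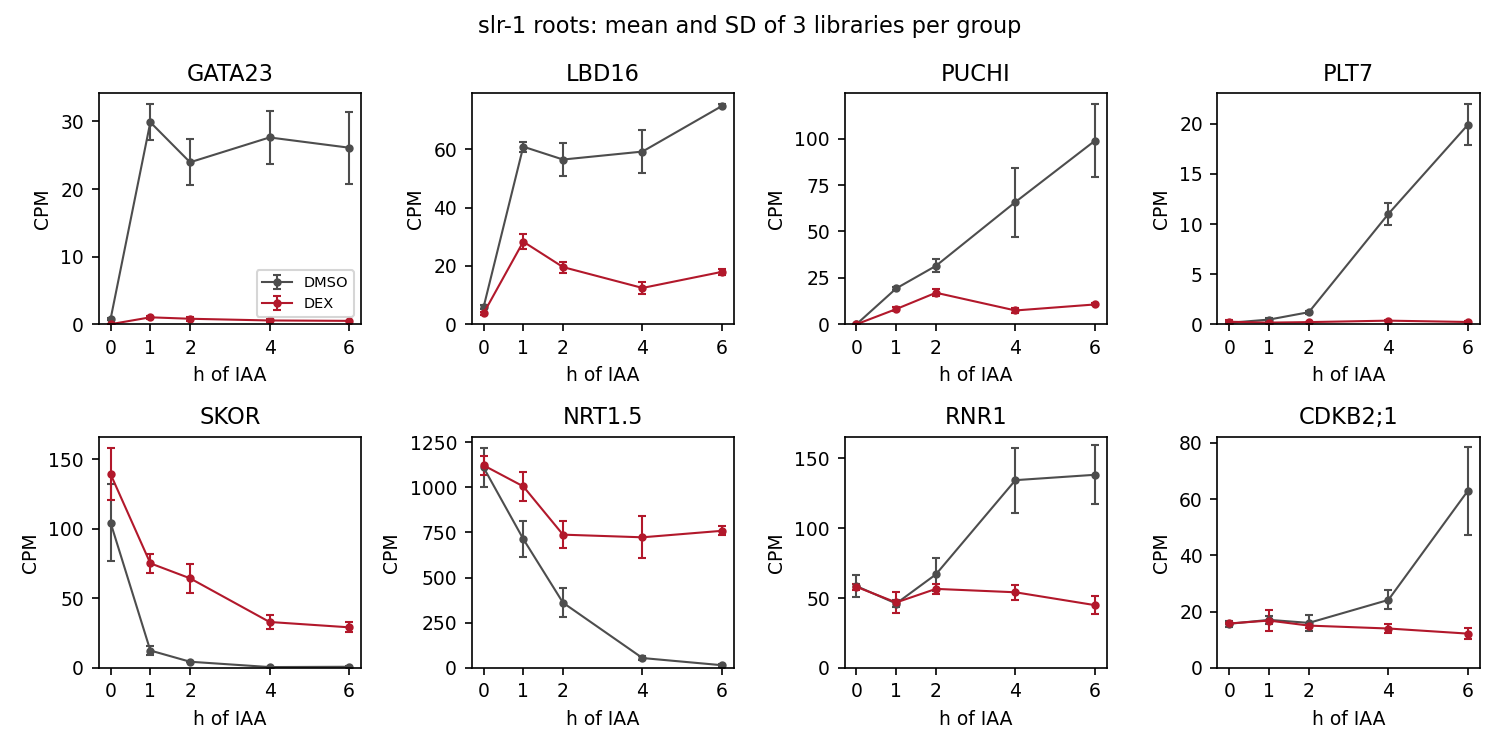
Mean CPM and SD of 3 libraries per group against hours of IAA in slr-1 roots, DMSO in grey and DEX in red, with linear axes starting at 0. In DMSO the levels of PLT7, RNR1 and CDKB2;1 go up late and those of SKOR and NRT1.5 go down, while in DEX PLT7 stays between 0.173 and 0.367 CPM and NRT1.5 is at 723 CPM at 4 h.

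Among the 12 largest rises were 3 genes of transport into the xylem, the stream that carries ions to the shoot from cells next to the vessels. The transport list, chosen with earlier results of these data known, holds 9 of the 21864 genes tested. Of 9 listed genes of transport to or from the xylem 6 were higher in DEX and 0 lower. Their median log2 difference was 2.19, and 5.83% of all genes were higher. SKOR (chromosome 3, 619678 to 623739), an outward potassium channel of the stele, stood at 38.4, 28.5 and 32.0 CPM in DEX and 0.539, 0.610 and 0.501 CPM in DMSO. Every DEX library was far above every DMSO library, with a log2 difference of 5.90 ± 0.27 (n = 3 per group; edgeR adjusted p = 1.54e-13).

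NRT1.5 (chromosome 1, 11715147 to 11719988), which loads nitrate, stood at 820, 593 and 756 CPM in DEX and 39.5, 61.8 and 61.5 CPM in DMSO, 3.74 ± 0.27 on the log2 scale. PHO1 (chromosome 3, 8387398 to 8393467), the phosphate exporter of the stele, stood at 359, 279 and 334 CPM against 58.1, 64.7 and 56.2 CPM, 2.44 ± 0.14. The zinc pump genes HMA2 and HMA4 differed by 4.33 ± 0.28 and 1.21 ± 0.19, and HKT1, which takes sodium back from the xylem, by 2.19 ± 0.37 at levels of 0.133 to 1.13 CPM. BOR1, the boron exporter, did not pass at -0.09 ± 0.26, nor did SULTR2;1 or NRT1.8. Each of the 14 alternatives called 6 genes of this list.

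In further lists, of root tissues and of processes such as the clock and stress, few genes passed the test. Of all genes 17.8% were called. The lists are small, and whether their counts differ from that share was not tested. Of 12 genes of xylem and secondary wall, among them the cellulose synthases CESA4, CESA7 and CESA8, 1 was lower, the thermospermine synthase gene ACL5 at -0.63 ± 0.19, a call lost in 3 alternatives. Of 7 vascular patterning genes LHW was higher by 0.34 ± 0.08, of 5 phloem genes CALS7 was lower by -0.46 ± 0.12, and of 4 root cap genes SMB was lower by -0.67 ± 0.15. Of 15 clock genes RVE8 was higher by 0.32 ± 0.11, which 9 of 14 alternatives did not call. No gene passed the test among 10 genes of the endodermis, 11 of suberin, 9 of root hairs, 6 PILS carriers, 3 CEP peptides, 5 of detoxification, 5 of heat shock, 6 of flavonoids, 4 of nitrate assimilation, 11 of touch, wounding and jasmonate, and 3 of shoot identity.

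By rank of the fitted difference the first rises were AT1G49570, SKOR, AT4G30460, AT4G30450, HMA2, AT2G41480, AT3G01260, AT1G49470, AT4G00910, NRT1.5, AT3G53980 and ATSBT5.2. AT1G49570 and AT2G41480 encode peroxidases of the secreted class. AT1G49570 stood at 25.8, 22.6 and 31.6 CPM in DEX and 0.323, 0.265 and 0.459 CPM in DMSO, 6.22 ± 0.36. AT4G30460 stood at 71.5, 77.9 and 73.9 CPM in DEX and 0.916, 1.70 and 1.77 CPM in DMSO, 5.66 ± 0.23, and its neighbour on chromosome 4, AT4G30450, differed by 4.34 ± 0.21. The first falls were AT2G15590, GATA23, PLT7, AT5G17340, FLP, PUCHI, AT2G42150, AT3G15250, LBD33, LBD17, IDL4 and AT3G11150. AT2G15590 stood at 0.422, 0.165 and 0.150 CPM in DEX and 17.1, 15.3 and 14.6 CPM in DMSO, -6.09 ± 0.27. IDL4, a gene for a peptide like the abscission signal IDA, differed by -2.60 ± 0.35. Thus 6 of the 12 largest falls were lateral root factors or LBD genes of the list. That list holds 30 of the 21864 genes tested and was chosen with earlier results of these data known.

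Genes of aliphatic glucosinolate synthesis, a family of sulphur-rich defence compounds, were higher in 4 of 6 tested genes, beside 5.83% of all genes. MYB28, the factor that turns the pathway on, stood at 35.9, 54.3 and 45.03 CPM in DEX and 8.14, 9.09 and 6.09 CPM in DMSO, 2.54 ± 0.42. MAM1, of chain elongation, differed by 3.26 ± 0.81 and the sulphotransferase gene SOT18 by 2.23 ± 0.39. Without DEX replicate 3 the count was 3, since CYP79F2 (2.18 ± 0.69) lost its call, as it did in 5 of 14 alternatives.

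**Figure D3:**
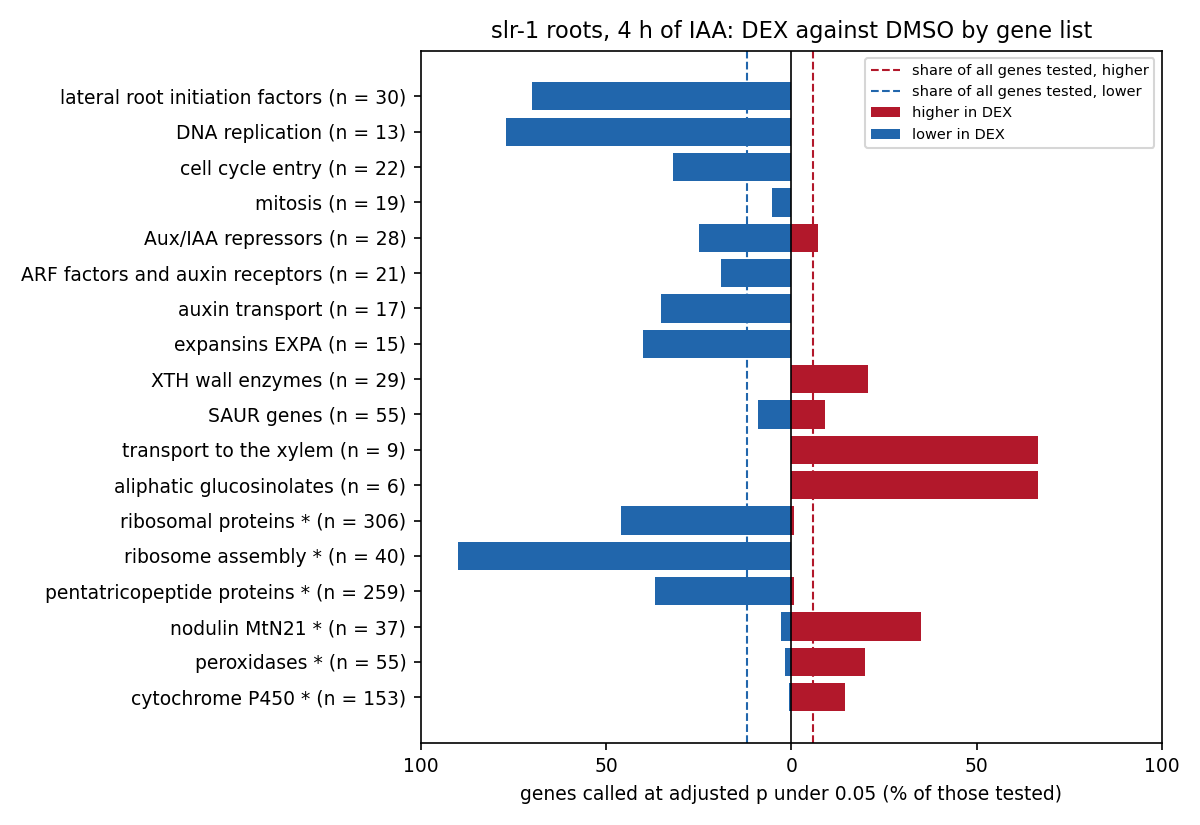
Share of the tested genes of each list called higher (red, to the right) or lower (blue, to the left) in DEX against DMSO in slr-1 after 4 h, in percent, with dashed lines at the shares of all genes tested (5.83% and 12%). Asterisks mark groups made from words in RefSeq product names after the values had been seen. The other lists were chosen with earlier results of these data known. Ribosome assembly, DNA replication and lateral root lists reach furthest to the left.

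Further groups were made from words in the RefSeq product names after the largest differences had been seen, so their counts are a description. The gene lists above were also chosen with earlier results of these data known. Beside 12% of all genes lower, 36 of 40 genes with ribosome assembly words in the product name were lower in DEX. None was higher, and the median log2 difference was -0.90. These proteins process ribosomal RNA in the nucleolus. NUC-L1, the nucleolin gene, stood at 422, 375 and 460 CPM in DEX and 992, 949 and 982 CPM in DMSO, -1.22 ± 0.10. PPAN stood at 28.6, 27.8 and 27.9 CPM against 68.6, 69.9 and 65.9 CPM, -1.28 ± 0.10. AT3G12860, with a NOP56-like product, stood at 17.2, 16.6 and 19.4 CPM against 63.4, 62.1 and 63.5 CPM, -1.83 ± 0.11. FIB2, a fibrillarin gene whose product methylates ribosomal RNA, and the second nucleolin gene NUC-L2 were picked out after their values were seen and differed by -1.80 ± 0.15 and -2.04 ± 0.18. The count lay between 34 and 36 in the alternatives.

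Ribosomal proteins with no organelle in the name were lower in 141 of 306 (46.1%, beside 12% of all genes) and higher in 2, at a small median of -0.32. Pentatricopeptide proteins, which process RNA in chloroplasts and mitochondria, were lower in 95 of 259 (36.7%) and higher in 2, with a median of -0.34. Over the alternatives these counts ranged from 84 to 175 and from 47 to 105. The ribosomal protein count was 84 without DMSO replicate 3 and 91 without DEX replicate 1, and the pentatricopeptide count was 47 without DMSO replicate 1, 54 without DEX replicate 1 and 62 when fitted on the compared groups alone. Upward, 13 of 37 nodulin MtN21 genes, a family with amino acid transporters, also named UMAMIT, were higher (35.1%), and 1 was lower. The share of all genes higher was 5.83%. UMAMIT17 stood at 32.7, 19.9 and 34.2 CPM in DEX and 2.24, 4.03 and 3.96 CPM in DMSO, 3.08 ± 0.29. Cytochrome P450 genes were higher in 22 of 153 (14.4%; 14 without DMSO replicate 3), among them CYP735A1 of trans-zeatin synthesis (3.88 ± 0.47) and CYP711A1 of strigolactone synthesis (0.85 ± 0.11). Peroxidases were higher in 11 of 55, in 5 without DEX replicate 3 or DMSO replicate 1, in 6 without DEX replicate 1 and in 7 without DMSO replicate 2 or 3.

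To see how these genes stood to auxin, all genes were sorted by 4 h against 0 h of IAA in DMSO of the shy2-2 line, which shares no library with the comparison. There IAA had raised 1866 genes (8.52%) and lowered 1493 (6.82%) at least 2-fold at an adjusted p under 0.05 by edgeR. Of the 1846 raised genes that were also tested in slr-1, 521 (28.2%) were lower in slr-1 with DEX and 30 higher. Of the 1477 lowered genes, 296 (20.04%) were higher and 9 lower. The remaining 18265 of the 21588 genes tested in both lines moved less than 2-fold or did not pass with IAA. This large class held 2074 of the lower calls (79.7%) and 942 of the higher ones (74.3%). Within it 11.4% were lower and 5.16% higher, slightly under the 12.06% and 5.87% of all genes tested in both. Both SKOR and FLP had moved more than 2-fold with IAA in shy2-2, SKOR falling by 4.15 on the log2 scale and FLP rising by 3.44. With no limit on the fold, IAA had raised 1 of the 13 DNA replication genes and lowered 2. It had raised 36 of the 40 ribosome assembly genes and lowered 0, with a median log2 of 0.60. Of all 21902 genes tested there, 24.5% were raised and 3803 were lowered. Elapsed time and IAA cannot be told apart in that contrast.

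In slr-1 itself more genes were called at later times in IAA. At 0 h 2 genes were higher (0.00915%) and 3 lower (0.0137%) in DEX, at 1 h 46 (0.210%) and 82 (0.375%), and at 2 h 92 (0.421%) and 251 (1.15%). At 6 h 2699 were higher (12.3%) and 3698 lower (16.9%). The pair of runs differed at 0 h and at 1 h from that of 2, 4 and 6 h, and DEX 0 h replicates 1 and 2 were high in photosynthesis RNA (mean log2 7.78 and 7.14), so time and run cannot be told apart in the counts of 0 and 1 h. Both times, 2 and 4 h, drew DEX and DMSO from the same pair of runs, so that a run difference of equal log2 size cancels in the difference of the 2 effects. By that test 491 genes differed (2.25% of those tested), 129 (0.590%) with a more positive and 362 (1.66%) with a more negative effect at 4 h. Of these, 123 were among the genes higher and 358 among those lower at 4 h, beside 5.83% and 12% of all genes. Both tests use the same libraries of 4 h, so this overlap is largely built in. In 2 of the 3 DMSO libraries of 2 h, replicates 1 and 3, the photosynthesis genes were high, at a mean log2 of 6.45 and 6.48. Leaving out the slr-1 libraries high in this RNA kept replicate 2 as the only DMSO library of 2 h, so that fit gives no usable count of calls. Without DMSO 2 h replicate 1 alone 165 genes were called.

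NRT1.5 gained 2.70 ± 0.34 in its log2 difference between 2 and 4 h, from 1.03 to 3.74. Its mean level went from 361 to 54.3 CPM in DMSO and from 738 to 723 CPM in DEX. SKOR gained 2.03 ± 0.33 and PHO1 1.16 ± 0.19. SKOR stood at 139 ± 19 CPM in DEX and 104 ± 28 CPM in DMSO at 0 h (SD, n = 3), and at means of 33.0 and 0.550 CPM at 4 h. Of the 9 transport genes 4 had a more positive effect at 4 h, and 3 or 4 in each alternative.

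PUCHI changed by -2.25 ± 0.23 and PLT7 by -2.49 ± 0.45 from 2 to 4 h. PUCHI went in DMSO from 31.5 to 65.9 CPM and went from 17.01 to 7.46 CPM in DEX. PLT7 went from 1.21 to 11.01 CPM in DMSO and from 0.222 to 0.367 CPM in DEX. RNR1, with 56.6 ± 3.6 and 67.0 ± 12 CPM in DEX and DMSO at 2 h (SD, n = 3), changed by -1.07 ± 0.20. These 3 calls and those of NRT1.5, SKOR and PHO1 held in all 19 alternatives, whereas those of LBD16 (-0.73 ± 0.17) and IAA19 (-0.83 ± 0.20) were lost in 7 and 6. Of the 13 DNA replication genes 4 were more negative at 4 h, and of the 30 lateral root factors 7, but these counts ranged from 1 to 8 and from 3 to 9 over the alternatives. The lowest lateral root count came from the fit without the libraries high in photosynthesis RNA, which kept a single DMSO library of 2 h. In that fit the median log2 changes of the DNA replication and lateral root lists were -0.93 and -0.58. The counts were 1 and 4 without DMSO 2 h replicate 1 and again without DMSO 4 h replicate 1, and 1 and 5 without DEX 2 h replicate 2. Without DEX 4 h replicate 1 or DMSO 2 h replicate 2 the DNA replication count was 2, without DMSO 2 h replicate 3 it was 8, and without DMSO 4 h replicate 2 it was 6.

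Between 4 and 6 h 87 genes differed (0.398%), 7 (0.0320%) more positive and 80 (0.366%) more negative, of which 11 were among the 19 mitosis genes. CDKB2;1 changed by a log2 of -1.58 ± 0.24, its mean going from 24.2 to 62.9 CPM in DMSO and from 14.0 to 12.2 CPM in DEX. CYCB1;3, a mitotic cyclin, changed by -2.21 ± 0.40. At 6 h all 19 genes of the list were lower in DEX, beside 16.9% of all genes, and 1 was at 4 h. Of the calls in the difference itself 1 was left when only the 4 compared groups were fitted, none of it in this list. Leaving out DMSO 6 h replicate 2 gave 19 calls, DMSO 4 h replicate 2 gave 21, DEX 6 h replicate 1 gave 22, and DMSO 6 h replicate 3 gave 167.

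The other line, whose fusion carries IAA3, gives the same contrast in separate samples. Its DEX and DMSO libraries of 4 h also came from different sequencing runs, so run and treatment cannot be told apart there either. In shy2-2 at 4 h, DEX went with higher levels of 540 genes (2.47%) and lower levels of 1835 (8.38%), together 10.8%. Of the genes tested in both lines, 1628 were lower in both, which is 62.5% of those lower in slr-1 and 88.8% of those lower in shy2-2. The 380 that were higher in both are 29.97% of those higher in slr-1 and 70.8% of those in shy2-2, and 0 genes were called in opposite directions. In shy2-2, 13 of the 30 lateral root factors, 9 of the 13 DNA replication genes and 35 of the 40 ribosome assembly genes were lower, and 5 of the 9 xylem transport genes were higher. DEX replicate 3 of shy2-2 was high in photosynthesis RNA, at a mean log2 of 6.52. The shy2-2 calls moved with single libraries, to 1224 without DMSO replicate 1, 1437 without DMSO replicate 2 and 1580 without DEX replicate 3, and to 1396 without the libraries high in photosynthesis RNA. The lower genes shared by both lines were then 866 without DMSO replicate 1 (33.2% of those lower in slr-1 and 96.4% of those lower in shy2-2) and 964 without the libraries high in photosynthesis RNA. Shared higher genes were 226 and 295 in these settings, and 0 genes were opposite in either.

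A gene called in one line and not the other is not thereby different, so the difference of the DEX effects was tested over both lines. It was called in 32 of 22268 genes (0.144%), 25 (0.112%) with a more positive and 7 (0.0314%) with a more negative effect in slr-1. Of the 9 xylem transport genes 4 were among them, each with a larger rise in slr-1. SKOR led with 3.16 ± 0.33 (edgeR adjusted p = 9.97e-08). Its shy2-2 levels were 38.5, 40.0 and 41.9 CPM in DEX and 4.80, 6.18 and 7.47 CPM in DMSO. Set beside the slr-1 values, the DEX levels lay close together and the DMSO levels lay apart.

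NRT1.5 differed by 1.73 ± 0.31, with 657, 576 and 495 CPM in DEX and 159, 138 and 146 CPM in DMSO of shy2-2, and PHO1 by 1.02 ± 0.21, a call lost in 4 of 19 alternatives. The HMA2 difference of 1.92 ± 0.41 was lost in 6 of 19 alternatives. In the other direction PLT7 differed by -2.76 ± 0.43. PLT7 stood at 0.392, 0.281 and 0.285 CPM in DEX and at 1.84, 1.20 and 1.27 CPM in DMSO of shy2-2, so here too the DEX levels were alike and the DMSO level was higher in slr-1. LBD16 differed by -0.91 ± 0.17, which did not pass in a fit of just the 4 compared groups, or without shy2-2 DEX replicate 2. WOX11, which acts in roots formed outside the usual prepatterned sites, gave -0.13 ± 0.12 in slr-1 and -1.56 (edgeR adjusted p = 8.44e-07) in shy2-2, with a difference between the lines of 1.39 ± 0.20. None of the 13 DNA replication genes was called in this test. The lines also came from different sequencing runs, so that line and run cannot be told apart.

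**Figure D4:**
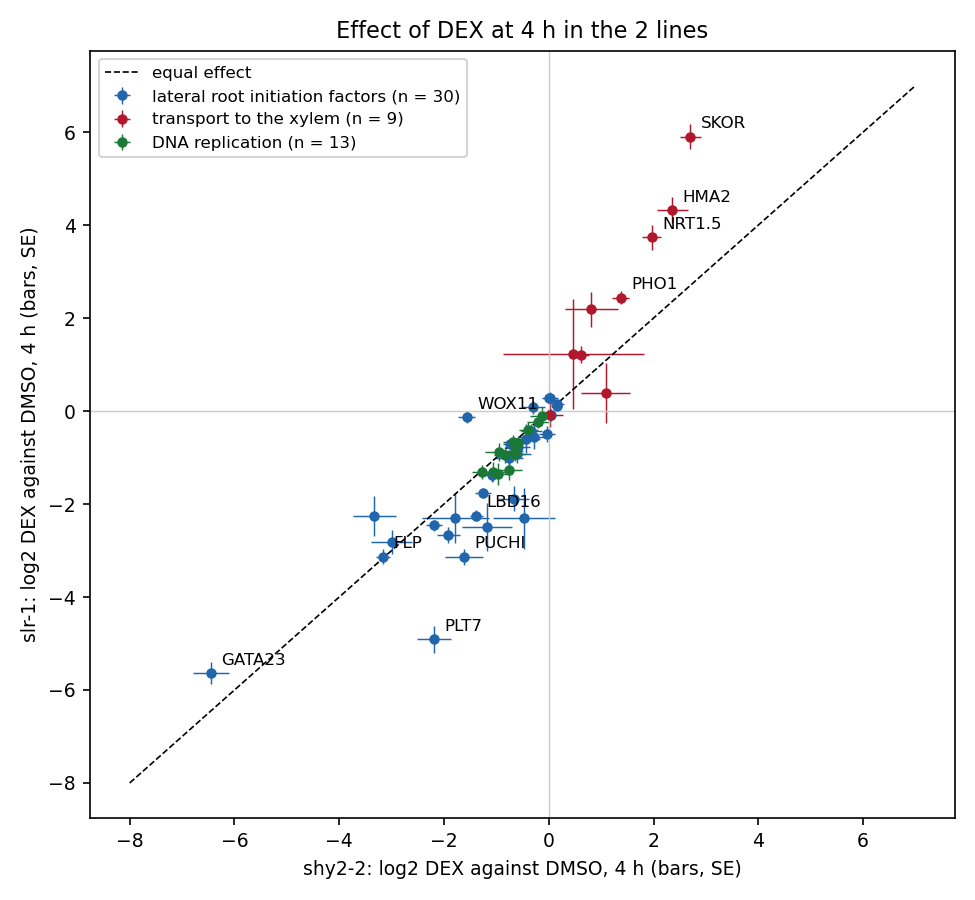
Log2 difference between DEX and DMSO at 4 h in slr-1 (vertical) against shy2-2 (horizontal) for 30 lateral root factors, 9 xylem transport genes and 13 DNA replication genes, with standard errors; the dashed line marks equal effects. SKOR, HMA2, NRT1.5 and PHO1 lie above the line and PLT7 below it, while the DNA replication genes lie near it.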

How the data were processed

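RNA-seq counts per gene were deposited for each of the 60 libraries. Per the submitters' processing notes, STAR 2.5.2b, the TAIR10 build and DESeq2 were used; the annotation is not given in the sources used here. The authors deposited unnormalized counts with 1 column for all reads and 2 by strand, and column 4, which held 95.8 to 96.4% of the stranded counts in the 6 libraries, was used. Rows naming no gene (5.58 to 6.41%) were left out. The slr-1 libraries, 30 in 10 groups, were fitted together with edgeR 4.0.16 (R 4.3.3): filterByExpr, TMM scaling, robust quasi-likelihood fit, Benjamini-Hochberg adjustment over all genes tested and a threshold of 0.05. SE is the absolute log2 difference divided by the square root of F, and CPM is relative to the TMM-scaled library total. The difference between lines was fitted over all 60 libraries. The fit was tested on simulated data. No 2 replicates of the 4 h slr-1 groups agreed within sampling noise; other groups were not compared.

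Members and lists were chosen with earlier results of these data known. Named genes were the 12 largest rises and falls past the threshold with no overlap of groups, a mean of at least 5 CPM and at least 2-fold, genes of the design, and up to 4 called genes per list by adjusted p; other list members are named to complete a count. Sequences and product names come from RefSeq, TAIR10.1, which matched 32548 of 32833 genes. Alternatives were DESeq2 1.42.0, its size factors, no filter, unstranded counts, a replicate block, each replicate left out, libraries high in photosynthesis RNA left out, and fewer groups in the fit.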

Additional observations from a re-analysis of the deposited data

Results flagged for a closer look

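The DEX effect at 4 h differed between the slr-1 and shy2-2 lines in 19 of the genes named, by edgeR's quasi-likelihood test of the difference. All values are the slr-1 minus the shy2-2 log2 difference. Among xylem transport genes it was 3.16 for SKOR, 1.92 for HMA2, 1.73 for NRT1.5 and 1.02 for PHO1. Lateral root factors gave -2.76 for PLT7, -0.91 for LBD16 and 1.39 for WOX11. Further genes with a more positive effect in slr-1 were AT4G30460 at 2.49, AT3G01260 at 2.44, AT1G49470 at 2.39, AT4G00910 at 2.17, AT4G30450 at 2.13, PUP4 at 1.78, AT3G62040 at 1.69, TPPB at 1.62 and ATSBT5.2 at 1.52. A more negative effect was found for AT2G42150 at -2.98, IQD12 at -1.32 and AT5G05180 at -1.0.

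The calls of AT5G05180, TPPB and AT3G62040 were kept in 4, 10 and 11 of 19 alternatives. AT2G42150 stood at 2.61, 1.93 and 2.13 CPM in DEX and 19.2, 18.6 and 17.7 CPM in DMSO of slr-1, with a log2 difference of -3.07 that was -1.90 with unstranded counts. Line and sequencing run cannot be told apart in these values.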

How the results depend on the processing

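The 3896 calls at 4 h in slr-1 became 4301 with DESeq2, 3884 with its size factors, 3574 with no filter, 3843 with unstranded counts, 3812 without libraries high in photosynthesis RNA, 3312 with the compared groups only, and 3597 with the 4 and 6 h groups only, a choice made after seeing the data. Without 1 replicate each they were 2967 to 3401, and 2203 genes were called in every setting. Same-numbered DEX and DMSO samples did not deviate together (correlations of -0.549, -0.505 and 0.112). Deviations from a group mean depend on each other, so these values cannot show whether the samples were paired. DEX replicate 1 did deviate with DMSO replicate 2 (0.591), and DEX replicate 2 with DMSO replicate 1 (0.516). The other pairings lay between -0.165 and 0.084. With the replicate block, which follows the numbers, 4313 genes were called. Of 94 named genes called, 78 were called in every alternative and 0 reversed. The 491 calls between 2 and 4 h became 973 with DESeq2 and 133 without libraries high in photosynthesis RNA, and 165 to 701 without 1 replicate. The 87 calls between 4 and 6 h became 163 with DESeq2, 53 without libraries high in photosynthesis RNA and 1 with the compared groups only. They were 19 to 167 without 1 replicate. The 32 calls between lines became 51 with DESeq2 and 20 with the compared groups only, and 25 to 35 without 1 replicate. The 2375 calls in shy2-2 became 1396 without libraries high in photosynthesis RNA and 1551 with the compared groups only, and 1224 to 2189 without 1 replicate. The 9170 calls of IAA in shy2-2 became 7295 to 8766. The cause was not tested.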

Other observations

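UMAMIT15, a gene of the nodulin MtN21 family, was too low in mean CPM to be ranked and was picked out after its values were seen. It stood at 0.0384, 0 and 0 CPM in the DEX libraries and at 5.88, 5.19 and 5.22 CPM in the DMSO libraries, from 1 count against 664 over each group. Its relatives UMAMIT20 and UMAMIT29 were higher in DEX, at log2 differences of 2.55 ± 0.30 and 3.22 ± 0.53 by edgeR.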
